A study of Homo sapiens with 6 samples.

Results

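The regions described here are the anchors and loops of human chromosome 19 in HiChIP libraries of the G401 cell line. HiChIP reads which stretches of DNA, here called anchors, are held close together at a chosen protein or histone mark. A loop is a pair of anchors, and it is counted in paired-end tags (PETs), each with 1 end in either anchor. Every listed loop whose first column named chromosome 19 was taken, which gave 44844 of the 736589 loops listed over the 6 libraries. Merging anchors that overlapped by at least 1 bp gave 1257 of 30001 consensus anchors and 20887 of 348566 consensus loops. G401 comes from a rhabdoid tumour without SMARCB1. That protein belongs to the core of SWI/SNF, a complex that remodels chromatin, and the line carried here a SMARCB1 gene switched on by doxycycline at 1 μg/ml. The 3 groups of 2 libraries each were ARID1A at day 3 of doxycycline in cells labelled SMARCB1 +/+, H3K27ac at day 3 in the same labelled state, and H3K27ac at day 0 in cells labelled SMARCB1 -/-. ARID1A is a subunit of SWI/SNF. All groups share the line, no group had doxycycline without SMARCB1, and SMARCB1, doxycycline and time in culture therefore cannot be told apart. The files hold no gene names, so neither the line nor the re-expression of SMARCB1 was checked against marker genes.

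Chromosome 19 is known for its density of genes and for long clusters of genes that encode KRAB zinc finger proteins, which bind DNA and mostly act as repressors, many of them against transposable elements. These clusters are often packed in chromatin marked by H3K9me3. H3K27ac marks active promoters and enhancers, and SWI/SNF complexes with ARID1A move nucleosomes chiefly at enhancers. The chromosome was also taken apart into 4 regions on the hg19 build: the short arm before 24.4 Mb, band 19q13.33 (chr19:48000000-51400000), the zinc finger window at chr19:52000000-59000000, and the rest of the long arm. They held 614, 122, 101 and 420 of the 1257 consensus anchors. The gene density could be checked against RefSeq names (assembly GRCh38.p14) divided by the hg19 length. Chromosome 19 had 1451 coding genes, 24.5 per Mb, against 6.26 per Mb over the other autosomes, and held 250 of the 505 autosomal coding genes with a ZNF symbol.

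Whole libraries held 435210 and 467487 PETs for ARID1A, 929128 and 982141 for H3K27ac at day 3, and 301703 and 253502 for H3K27ac at day 0. On chromosome 19 the ARID1A libraries held 17493 and 19440 PETs, those of H3K27ac 54191 and 57327 at day 3, and 17030 and 15164 at day 0. Whether replicates came from separate cultures is not in the labels, so p-values speak only of how these libraries vary, and that variation may be technical. With 2 libraries a group, an exact permutation test over 6 arrangements cannot go below p = 0.333, and values per library are given below with their spread and without such a test. Anchors appear to have been called once per group, since both libraries of each group share almost all of them. Where a group lacks an anchor, its contacts there are unknown, and no fold is given.

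Chromosome 19 had more anchors per Mb than any other autosome in all 3 groups. There were 18.9 and 19.03 anchors per Mb in the ARID1A libraries, 13.0 in both H3K27ac libraries of day 3, and 8.22 and 8.24 for H3K27ac at day 0. The other autosomes together had 8.80 and 8.81 for ARID1A, 5.78 in both libraries for H3K27ac at day 3, and 2.85 and 2.83 for H3K27ac at day 0. Chromosome 17, the autosome next in coding genes per Mb at 14.4, was also next in anchors per Mb, with 16.7 for ARID1A, 11.8 for H3K27ac at day 3 and 6.88 at day 0. Chromosome 19 therefore stood above the rest by a ratio of 2.16 ± 0.004 for ARID1A, 2.25 ± 0.001 for H3K27ac at day 3 and 2.90 ± 0.013 for H3K27ac at day 0 (SD, n = 2 each). Across the 22 autosomes, anchors per Mb and coding genes per Mb had a Spearman correlation of 0.90 for ARID1A, 0.95 for day 3 and 0.95 for day 0, and 0.89, 0.94 and 0.95 without chromosome 19. The autosomes share the same libraries, so these correlations are descriptions.

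**Figure D1:**
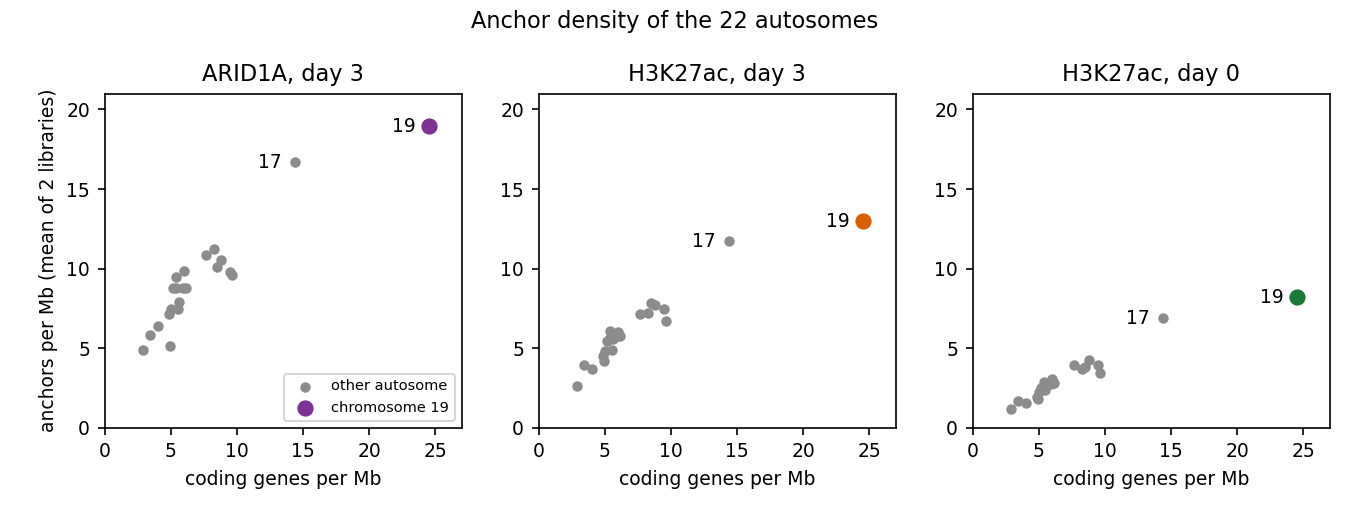
Anchors per Mb (y axis, mean of 2 libraries) against coding genes per Mb (x axis) for the 22 autosomes, with 1 panel per group. Chromosome 19, the large coloured point, lies at the top right of each panel at 24.5 coding genes per Mb, with 18.98 anchors per Mb for ARID1A, 13.0 for H3K27ac at day 3 and 8.23 for H3K27ac at day 0, and chromosome 17 comes next.

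Loops per Mb stood above the other autosomes by larger ratios than anchors per Mb in all 3 groups, and most so in the H3K27ac libraries. Chromosome 19 held 127.8 and 135.04 loops per Mb for ARID1A, 183.4 and 182.3 for H3K27ac at day 3, and 66.6 and 63.3 for H3K27ac at day 0. Over the other autosomes the counts were 52.9 and 55.0 for ARID1A, 53.2 in both libraries for H3K27ac at day 3, and 15.1 and 14.3 for H3K27ac at day 0. The ratio to the other autosomes was 2.43 ± 0.027 for ARID1A, 3.44 ± 0.017 for day 3 and 4.43 ± 0.020 for day 0 (mean ± SD, n = 2 each). With every library thinned to the 253502 PETs of the smallest it was 2.35 for ARID1A, 3.35 at day 3 and 4.41 at day 0. PETs per Mb exceeded those of the other autosomes by ratios of 2.04 ± 0.051 for ARID1A, 2.97 ± 0.002 at day 3 and 2.95 ± 0.13 at day 0. When only loops with the deposited value at 0.01 or less were kept, the ratios for loops per Mb were 1.57 for ARID1A, 3.42 at day 3 and 2.91 at day 0, and those for PETs per Mb 1.41 for ARID1A, 2.67 at day 3 and 1.65 at day 0. All 6 libraries had more anchors, loops and PETs per Mb on chromosome 19 than on the other autosomes together. Taken singly, chromosome 17 had more PETs per Mb at day 0, with a mean of 280.2, where chromosome 19 had 288.0 and 256.5.

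Each anchor of chromosome 19 was joined to more partners, through loops with fewer PETs each. An anchor had 13.5 and 14.2 partners in the ARID1A libraries, 28.2 and 28.04 for H3K27ac at day 3, and 16.2 and 15.4 for H3K27ac at day 0. Over the other autosomes together it had 12.03 and 12.5 for ARID1A, 18.4 in both libraries at day 3, and 10.6 and 10.1 at day 0. Taken singly, chromosome 12 had a mean of 14.1 partners for ARID1A, above the mean of chromosome 19. A loop of chromosome 19 held 2.31 and 2.43 PETs in the ARID1A libraries, 4.998 and 5.32 for H3K27ac at day 3, and 4.33 and 4.05 for H3K27ac at day 0. On the other autosomes it held 2.79 and 2.88 for ARID1A, 5.80 and 6.12 at day 3, and 6.66 and 5.91 at day 0. All 6 libraries had fewer PETs per loop on chromosome 19, and a larger share of loops resting on a single PET: 61.9% and 61.2% for ARID1A, 44.1% and 43.1% at day 3, and 44.9% and 47.3% at day 0. Elsewhere that share was 56.7% and 55.8% for ARID1A, 41.3% and 40.9% at day 3, and 39.9% and 41.4% at day 0. When only loops with the deposited value at 0.01 or less were kept, anchors of chromosome 19 had fewer partners than the others for ARID1A (ratio 0.81) and at day 0 (ratio 0.87), so those 2 orders depend on loops above that threshold.

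The possible pairs were less completely filled. Of all anchor pairs of chromosome 19 lying 5 kb to 2000 kb apart, 13.21% and 13.9% were listed in the ARID1A libraries, 42.6% and 42.3% for H3K27ac at day 3, and 37.9% and 36.0% for H3K27ac at day 0. The other autosomes had 19.5% and 20.3% for ARID1A, 44.9% and 45.0% at day 3, and 45.1% and 42.7% at day 0, so all 6 libraries were lower on chromosome 19. A PET of chromosome 19 stepped over a mean of 6.49 and 6.45 other anchors for ARID1A, 5.56 and 5.40 at day 3, and 3.25 and 3.28 at day 0. Elsewhere it stepped over fewer in each library, 5.26 and 5.31 for ARID1A, 4.64 and 4.52 at day 3, and 2.67 and 2.72 at day 0. With only loops at a deposited value of 0.01 or less this order turned for ARID1A, with 3.52 and 3.57 on chromosome 19 and 4.02 and 4.13 elsewhere. Contacts were also spread more evenly. The tenth of anchors with most PETs took 36.1% and 36.0% of anchor ends on chromosome 19 for ARID1A, 37.1% and 37.4% at day 3, and 33.0% and 32.5% at day 0. On the other autosomes it took 41.3% and 41.4% for ARID1A, 48.5% and 48.7% at day 3, and 52.8% and 52.01% at day 0. The anchors themselves were narrower, with median widths of 5308 to 5314 bp for ARID1A, 5178 bp at day 3 and 5152 to 5153 bp at day 0. Elsewhere they were 5749 to 5750 bp for ARID1A, 5712 bp at day 3 and 5622 to 5633 bp at day 0. Among anchors of loops at a deposited value of 0.01 or less, those of ARID1A were wider on chromosome 19, by a ratio of 1.04.

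Loop spans on chromosome 19 followed the group. The median span over PETs was 76.1 and 76.7 kb in the ARID1A libraries, 110.5 and 105.1 kb for H3K27ac at day 3, and 84.3 and 85.8 kb for H3K27ac at day 0. The other autosomes had medians of 83.2 and 83.7 kb for ARID1A, 100.9 and 99.7 kb at day 3, and 76.0 and 78.6 kb at day 0. Spans on chromosome 19 were thus shorter than elsewhere in both ARID1A libraries and longer in all 4 H3K27ac libraries. The H3K27ac order turned when only loops with the deposited value at 0.01 or less were kept, with a ratio to the other autosomes of 0.93 ± 0.019 for day 3 and 0.81 ± 0.086 for day 0, while that of ARID1A was 0.78. At day 3 the chromosome 19 median was 22.8 kb longer than at day 0 and that of the other autosomes 23.01 kb longer, so that the ratio of chromosome 19 to the others, 1.07 ± 0.030 for day 3 and 1.10 ± 0.013 for day 0 (SD, n = 2 each), moved by less than the spread between libraries. ARID1A spans were 31.4 kb shorter than day 3 H3K27ac spans on chromosome 19 and 16.8 kb shorter elsewhere, with ratios to the other autosomes of 0.92 ± 0.001 for ARID1A and 1.07 ± 0.030 for H3K27ac. With each loop counted once, whatever its PETs, the medians of chromosome 19 were 187.2 and 195.4 kb for ARID1A, 483.6 and 474.9 kb for H3K27ac at day 3, and 357.1 and 340.6 kb for H3K27ac at day 0.

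**Figure D2:**
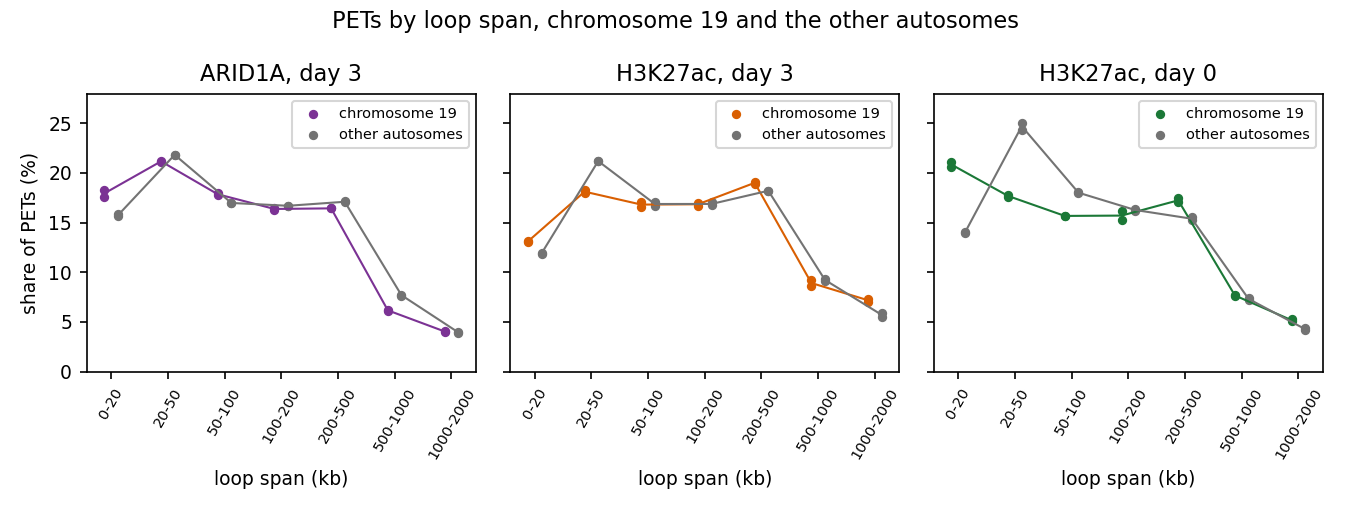
Share of PETs (y axis, percent) in 7 classes of loop span (x axis, kb) for chromosome 19 (coloured) and the other autosomes (grey), with 1 panel per group. Points are libraries and lines their means; at day 0, loops under 20 kb held 21.1% and 20.6% of PETs on chromosome 19 and 14.1% and 14.0% elsewhere.

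The shape behind these medians differed most at the short end. Loops under 20 kb held 17.6% and 18.3% of the PETs of chromosome 19 for ARID1A, 13.096% and 13.111% at day 3 and 21.1% and 20.6% at day 0. Elsewhere they held 15.8% and 15.6% for ARID1A, 11.9% in both libraries at day 3, and 14.1% and 14.0% at day 0. This excess was not particular to chromosome 19, which ranked 3 among the autosomes for ARID1A, 6 at day 3 and 2 at day 0. Chromosome 16 was higher in each group, with means of 20.3% for ARID1A, 16.5% at day 3 and 21.5% at day 0. Loops of 20 to 50 kb showed the opposite order at day 0, with 17.8% and 17.6% on chromosome 19 and 25.1% and 24.4% on the other autosomes. Loops over 1 Mb held 7.31% and 7.06% of the PETs at day 3 against 5.91% and 5.53% elsewhere, the highest share of any autosome. For ARID1A the shares of loops over 1 Mb overlapped, with 4.12% and 3.97% on chromosome 19 and 3.92% and 3.99% on the other autosomes.

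The 4 regions of the chromosome were unlike each other. Band 19q13.33 was the densest, with 35.3 and 35.0 anchors per Mb for ARID1A, 20 in both libraries at day 3 and 15.3 in both at day 0. The short arm had 22.6 anchors per Mb for ARID1A, 14.5 at day 3 and 9.34 to 9.39 at day 0, and the rest of the long arm 15.5 to 15.6 for ARID1A, 11.5 at day 3 and 6.58 at day 0. The zinc finger window was the sparsest for ARID1A and at day 3, with 10.3 and 10.7 anchors per Mb for ARID1A, 9.43 at day 3 and 6.57 at day 0, which still lay above the other autosomes. With only loops at a deposited value of 0.01 or less the window lay below them for ARID1A, with 2.57 and 1.71 anchors per Mb, against 4.72 and 4.85. An anchor in 19q13.33 had 16.9 and 17.98 partners for ARID1A, 36.3 and 36.0 at day 3, and 21.2 and 19.96 at day 0. In the zinc finger window an anchor had 7.82 and 7.73 partners for ARID1A, fewer than on the other autosomes, 17.9 and 18.1 at day 3, and 13.02 and 13.35 at day 0. The median span was longest in 19q13.33, at 82.9 kb in both ARID1A libraries, 132.3 and 134.9 kb at day 3, and 125.5 and 124.3 kb at day 0. It was shortest in the zinc finger window, at 61.4 kb in both ARID1A libraries, 75.9 and 73.7 kb at day 3, and 48.6 and 61.1 kb at day 0. With that threshold it was 61.4 kb in both ARID1A libraries, where the rest of the long arm had 63.4 and 50.1 kb, and it was 22.1 and 29.9 kb at day 3 and 13.4 and 17.02 kb at day 0.

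The groups shared anchors to different degrees in these regions. Of the consensus anchors called for H3K27ac at day 3, those also called for ARID1A made up 79.1% on chromosome 19 and 76.4% on the other autosomes. The share was 89.8% in 19q13.33, 79.9% on the short arm, 80.1% on the rest of the long arm and 60.9% in the zinc finger window, where it was 39 of 64. ARID1A anchors covered 26.8% and 26.7% of the sequence of 19q13.33 and 5.73% and 5.84% of that window. How much sharing such coverage alone would give was not tested. Anchors of H3K27ac at day 0 were still called at day 3 for 376 of 429 on chromosome 19, or 87.6%, and for 91.4% elsewhere. Seen from day 3, 52.7% of the H3K27ac anchors of chromosome 19 were also called at day 0, against 43.1% elsewhere. In 19q13.33 it was 71.2%.

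For H3K27ac at day 3 and day 0, the question was whether contacts on chromosome 19 shifted with SMARCB1 re-expression in the way those of other autosomes did. The called anchors grew less: their number per Mb at day 3 was 1.58 times that at day 0 on chromosome 19 and 2.03 times elsewhere, and for loops per Mb the ratios were 2.82 and 3.63. With every library thinned to the smallest, the ratios for loops were 1.504 on chromosome 19 and 1.98 elsewhere. The order for loops turned when only those with the deposited value at 0.01 or less were kept, with 4.50 on chromosome 19 and 3.83 elsewhere. For PETs the values overlapped. Chromosome 19 held 5.86% and 5.87% of the autosomal PETs at day 3, against 5.66% and 5.997% at day 0, where the 2 libraries lay on either side of the day 3 values. In edgeR's quasi-likelihood test over the 22 autosomes, scaled to their summed PETs, the log2 fold of chromosome 19 was 0.01 ± 0.03 (SE), with an adjusted p of 0.751. Of the 22 autosomes, 7 rose and 9 fell in that test. The sign for chromosome 19 rested on single libraries, with a log2 fold of -0.03 without day 0 replicate 1 and 0.05 without day 0 replicate 2, and only the second passed the threshold. When only loops with the deposited value at 0.01 or less were counted, the fold was 0.66 (edgeR, adjusted p = 0.000111).

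Within that total the regions went different ways. The zinc finger window fell to 0.315% and 0.311% of autosomal PETs at day 3, against 0.451% and 0.483% at day 0, a log2 fold of -0.58 ± 0.04 (SE; adjusted p = 0.000101, edgeR). It was the lowest of 25 tested features, which were the 4 regions and the other 21 autosomes. Among the cytobands that hold the window, only 19q13.42 was called lower, as given below. Without day 0 replicate 2 the fold was -0.53, with an adjusted p of 0.0519. Band 19q13.33 held 0.644% and 0.637% at day 3 and 0.754% and 0.783% at day 0, a log2 fold of -0.26 ± 0.03 that passed with edgeR (adjusted p = 0.000515) and was lost without either day 0 library (adjusted p = 0.186 and 0.232). It was positive when only loops between anchors called on both days were counted (0.13) or only loops with the value at 0.01 or less (0.37). The rest of the long arm rose, with 2.11% and 2.15% at day 3 and 1.84% and 1.91% at day 0, a log2 fold of 0.19 ± 0.03 (adjusted p = 0.00118, edgeR; 0.113 without day 0 replicate 1). For the short arm, with 2.80% and 2.77% at day 3 and 2.62% and 2.82% at day 0, the log2 fold of 0.03 ± 0.03 did not pass (edgeR, adjusted p = 0.40).

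**Figure D3:**
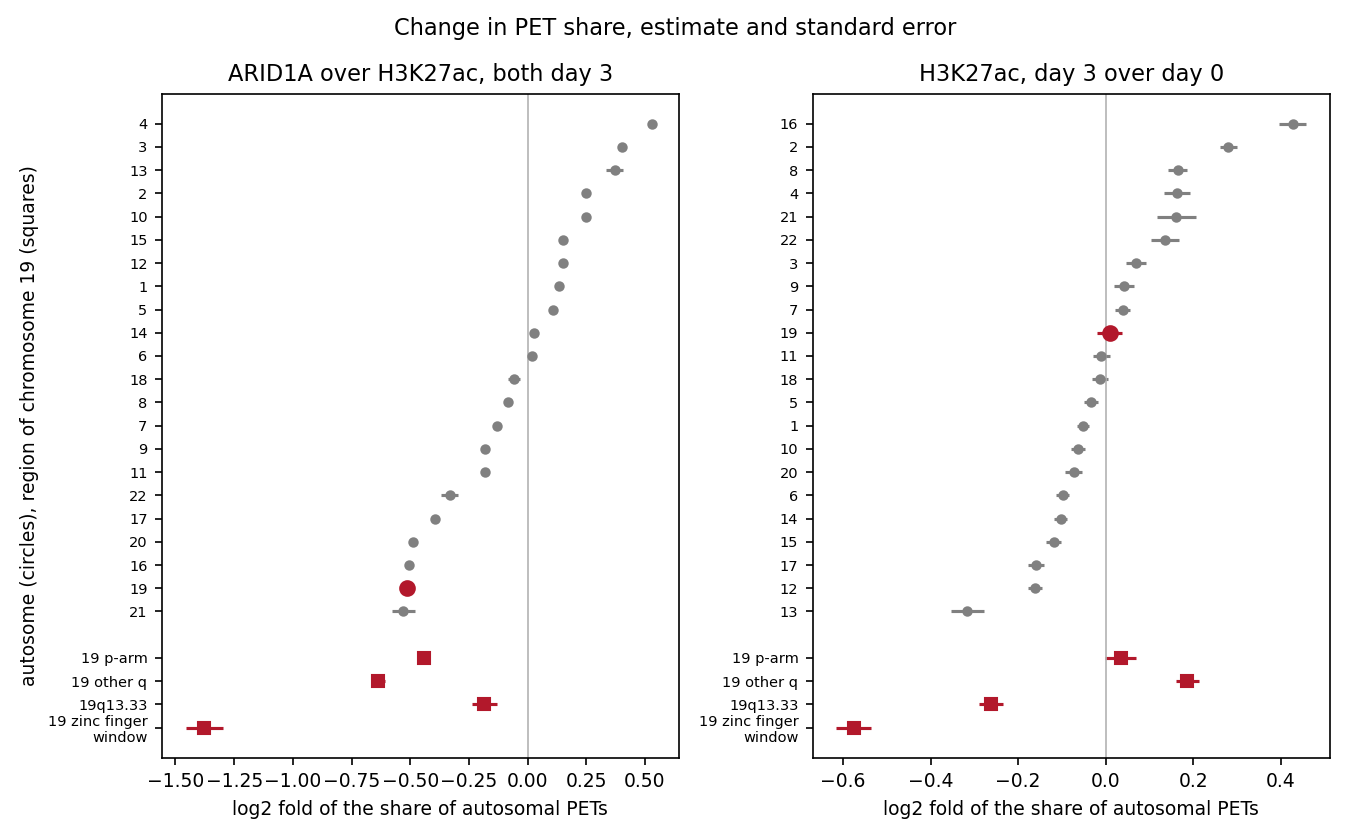
Log2 fold of the share of autosomal PETs (x axis) for the 22 autosomes (circles) and the 4 regions of chromosome 19 (squares), with bars of 1 standard error. The left panel sets ARID1A over H3K27ac, where chromosome 19 lies at -0.52 and its zinc finger window at -1.38; the right panel sets day 3 over day 0 of H3K27ac, where they lie at 0.01 and -0.58.

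Cytobands were tested with all 651 bands of the genome that passed the filter on low counts, scaled by TMM. Of the 18 bands of chromosome 19 tested, 3 were called higher and 10 lower at day 3, where 45.9% of all bands were called higher and 35.6% lower (edgeR, adjusted p under 0.05). Scaling to library totals instead raised the median log2 fold of all bands by 0.40 and gave 8 higher and 7 lower. The calls that kept their direction under both scalings were 3 higher and 7 lower. Band 19q12, near the centromere, held 0.88% and 0.95% of the PETs of chromosome 19 at day 3, against 2.14% and 1.84% at day 0, with a log2 fold of -1.51 ± 0.08 (SE) by TMM and -1.11 by totals. Band 19q13.42, inside the zinc finger window, held 4.22% and 4.12% at day 3, against 7.13% and 7.20% at day 0, with folds of -1.17 ± 0.05 and -0.77. The other bands that hold the window were not called lower. For 19q13.41 the folds were -0.24 ± 0.16 by TMM and 0.16 by totals, and neither passed. For 19q13.43 they were -0.08 ± 0.09, which did not pass, and 0.32, which did (edgeR, adjusted p = 0.000557). Band 19q11 had 0.52% and 0.55% at day 3 and 0.92% and 0.72% at day 0, with folds of -1.01 ± 0.11 and -0.61, and did not pass when only loops with the value at 0.01 or less were counted (-0.17). On the other side, 19q13.12 held 1.35% and 1.44% at day 3, against 0.80% and 0.59% at day 0, and 19q13.11 held 0.95% and 1.03% at day 3, against 0.52% and 0.55% at day 0. Their folds were 0.61 ± 0.11 and 0.51 ± 0.11 by TMM. Band 19q13.13 had 54 and 45 PETs at day 3 and none at day 0, where no anchor pair was listed in it, so no fold is given.

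**Figure D4:**
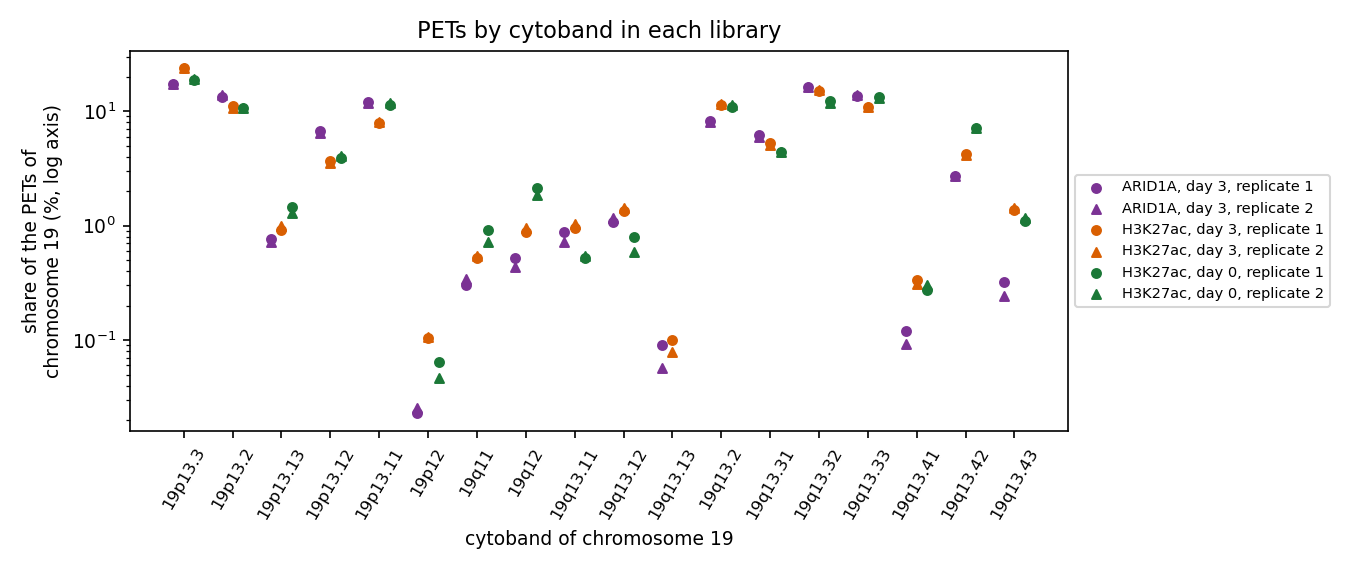
Share of the PETs of chromosome 19 (y axis, percent, log axis) in each cytoband along the chromosome (x axis), with 1 point per library. The 3 bands at the far right, which hold the zinc finger window, are lowest for ARID1A, and 19q13.42 stands at 2.69% in both ARID1A libraries, 4.22% and 4.12% at day 3, and 7.13% and 7.20% at day 0. Band 19q13.13 has no point for day 0, where it held no PETs.

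Anchors called on both days allow a fold per region. On chromosome 19, 376 of the 1257 consensus anchors were called on both days and 363 of them passed the filter of 10 PETs in 2 libraries. These folds are scaled to the PETs between anchors called on both days, which were 54.7% and 55.8% of the chromosome 19 PETs at day 3 and 86.5% and 87.1% at day 0, so they stand 0.62 above folds scaled to the library totals. Of the 363, 70 were called higher and 114 lower (edgeR, adjusted p under 0.05), or 19.3% and 31.4%, where 20.7% of all anchors tested in the genome were called higher and 18.8% lower. With library totals the split was 18 higher and 255 lower. The median log2 fold was -0.20 on chromosome 19 and 0.004 on the other autosomes, and with library totals -0.82 and -0.61. With only PETs of loops at a deposited value of 0.01 or less the order turned, with 0.69 and 0.48. In the zinc finger window, 1 of 31 anchors was called higher and 19 lower, with a median of -0.72, against 28 and 45 of 160 on the short arm, 9 and 9 of 42 in 19q13.33, and 32 and 41 of 130 on the rest of the long arm. The single anchor called higher in the window, chr19:58911273-58922394, named after its values were seen, had 116 and 148 PETs at day 3, against 40 and 22 at day 0 (log2 fold 0.81 ± 0.20), and its groups overlapped on counts scaled to the library.

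Fold went with the width over which an anchor was called. Of the 70 anchors called higher, 68 were called over a longer stretch at day 3, and of the 114 called lower, 77 were called over a shorter one. Across the 363 anchors the Spearman correlation of fold with the ratio of widths was 0.74, over anchors that share the same 4 libraries. Among the 272 whose called stretches overlapped by at least 50% of each, 18 were called higher and 52 lower, and the median log2 fold was again -0.20, with 0.01 on the other autosomes. PETs and called width are given side by side for this reason, and how much of a fold the width accounts for was not tested.

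The anchors that rose with the smallest p lay in bands 19p13.3, 19q13.32 and 19q13.2. At chr19:2447092-2481130 in 19p13.3, 1012 and 1138 PETs at day 3 stood against 170 and 162 at day 0, over called widths of 25189 bp at day 3 and 8192 bp at day 0. Scaled to the library, as counts per 1000000 PETs (CPM), that was 1199 ± 52 CPM at day 3 and 695 ± 59 CPM at day 0 (n = 2 each, ± SD). The groups did not overlap, and the log2 fold was 1.41 ± 0.09 (SE; adjusted p = 8.1e-39, edgeR). At 1016044 to 1029761 in the same band, 298 and 286 PETs at day 3 stood against 37 and 44 at day 0, a log2 fold of 1.57 ± 0.16. In 19q13.32, 3 anchors with other anchors between them rose, and the PETs of a loop that joins 2 of them count for both. The first, at chr19:47351401-47386414, had 495 and 544 PETs at day 3, against 83 and 90 at day 0 (log2 fold 1.31 ± 0.12). The second, at chr19:47470452-47488762, had 308 and 356 at day 3, against 51 and 46 at day 0 (1.49 ± 0.15). The third, at chr19:47536991-47570569, had 466 and 520 at day 3, against 86 and 92 at day 0 (1.19 ± 0.12). Their called widths at day 3 were 2.43 to 3.39 times those at day 0.

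Of the 3 loops that rose with the smallest p, one joined a pair of these anchors, one ran from another of them, and one lay in 19q13.2. The pair of 19q13.32 anchors at 47351401 and 47470452, 110.7 kb apart, had 121 and 139 PETs at day 3, against 11 and 15 at day 0, a log2 fold of 2.00 ± 0.25 (adjusted p = 2.8e-13, edgeR). From chr19:2447092-2481130 a loop of 156.4 kb to chr19:2610408-2630656 had 153 and 173 PETs at day 3, against 19 and 20 at day 0 (1.74 ± 0.22). A loop of 25.1 kb in 19q13.2 between chr19:42743250-42777092 and chr19:42778314-42792300 had 256 and 308 PETs at day 3, against 39 and 51 at day 0 (1.33 ± 0.16). The second of its anchors had 327 and 404 PETs at day 3, against 54 and 63 at day 0 (1.36 ± 0.14). That loop did not pass with every library thinned to the smallest (edgeR, adjusted p = 0.052). In 19q13.33 the anchor called higher with the smallest p, chr19:49053262-49079681, had 399 and 411 PETs at day 3, against 84 and 74 at day 0 (1.08 ± 0.12).

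The anchors that fell with the smallest p were mostly narrower at day 3. At chr19:18333572-18346043 in 19p13.11, 52 and 52 PETs at day 3 stood against 126 and 123 at day 0, over called widths of 3203 bp at day 3 and 7696 bp at day 0. That was 58.1 ± 2.3 CPM at day 3 and 521.7 ± 53 CPM at day 0 (n = 2 each, ± SD), a log2 fold of -2.54 ± 0.16 (SE; adjusted p = 5.6e-36, edgeR). Its neighbour at chr19:18381121-18423806 had 638 and 722 PETs at day 3, against 442 and 432 at day 0, or 758.5 ± 36 CPM at day 3 and 1831 ± 189 CPM at day 0. It fell by 0.64 on the log2 scale, over called widths of 27403 bp at day 3 and 31245 bp at day 0. In the zinc finger window, chr19:56180619-56190055 in 19q13.42 had 63 and 93 PETs at day 3, against 113 and 93 at day 0, with 86.7 ± 20 CPM at day 3 and 428.5 ± 7.7 CPM at day 0, and a log2 fold of -1.68 ± 0.16. No ARID1A anchor was called there. Its loop of 17.02 kb to chr19:56163832-56172794 had 23 and 44 PETs at day 3, against 56 and 39 at day 0 (-1.82 ± 0.23). The fall of that loop is relative to library depth, and it did not pass after thinning (edgeR, adjusted p = 0.0878). Other anchors that fell were chr19:14660269-14678019 in 19p13.12, with 44 and 48 PETs at day 3, against 72 and 63 at day 0 (-1.83 ± 0.20), and chr19:41301849-41311670 in 19q13.2, with 22 and 16 at day 3, against 52 and 36 at day 0 (-2.48 ± 0.27). In 19q13.32, chr19:45964910-45984576 had 264 and 343 PETs at day 3, against 239 and 217 at day 0 (-0.87 ± 0.10), and its loop of 23.1 kb to chr19:45939261-45963925 had 101 and 134 at day 3, against 93 and 103 at day 0 (-1.06 ± 0.15). On the short arm a loop of 14.3 kb from chr19:2610408-2630656 to chr19:2631353-2638310 had 74 and 61 PETs at day 3, against 68 and 72 at day 0 (-1.37 ± 0.18), a count near level in deeper libraries. With only PETs of loops at a deposited value of 0.01 or less, both loops just named were positive, at 0.09 and 0.38, and neither passed. In 19q13.33 the anchor called lower with the smallest p, chr19:49953912-49958450, had 148 and 186 PETs at day 3, against 128 and 86 at day 0, a log2 fold of -0.64 ± 0.14, and its call was lost without day 0 replicate 1 (edgeR, adjusted p = 0.0648).

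Over all loops of chromosome 19 with both ends called on both days and at least 4 PETs in 2 libraries, 95 of 1293 were called higher at day 3 and 116 lower, or 7.35% and 8.97%, where 8.30% and 6.80% of all loops tested were called. The median log2 fold was 0.002 on chromosome 19 and 0.07 on the other autosomes. In the zinc finger window no loop of 81 was called higher and 17 were called lower (edgeR). Loop calls depended on depth and on each library: leaving out any of the 4 libraries gave 89 to 102 calls, and thinning every library to the smallest gave 5 higher and 0 lower, with 181 loops at an unadjusted p under 0.05 and 43 calls with DESeq2 on the full counts. With library totals 36 were called higher and 301 lower. The balance turned towards higher with only PETs of loops at a deposited value of 0.01 or less (281 higher and 13 lower), with no filter (93 and 37), without day 3 replicate 1 (61 and 41) and without day 3 replicate 2 (54 and 43).

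At day 3, ARID1A contacts were set against H3K27ac contacts of the same day to ask where the 2 landscapes part. Chromosome 19 held 4.03% and 4.17% of the autosomal PETs in the ARID1A libraries, against 5.86% and 5.87% in the H3K27ac libraries. Its log2 fold among the 22 autosomes was -0.52 ± 0.007 (SE; adjusted p = 8e-07, edgeR), second lowest after chromosome 21 at -0.53 ± 0.05. That SE of chromosome 19 is derived from the test statistic, and its 2 ARID1A shares lie further apart than the SE conveys. The adjusted p comes from the same statistic, so neither measures the spread between these libraries. Chromosomes 16, 20, 17 and 22 also fell, by 0.50, 0.49, 0.40 and 0.33, and chromosomes 4, 3 and 13 rose most, by 0.53, 0.40 and 0.37. In all, 11 autosomes rose and 10 fell. Across the 22 autosomes this fold had a Spearman correlation of -0.55 with coding genes per Mb, and -0.51 without chromosome 19, as a description of chromosomes that share 4 libraries.

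The fall was deepest in the zinc finger window. It held 0.1196% and 0.121% of autosomal PETs for ARID1A, against 0.315% and 0.311% for H3K27ac, which are 519 and 564 PETs against 2914 and 3036. The log2 fold was -1.38 ± 0.08 (SE; adjusted p = 8.4e-05, edgeR), the lowest of the 25 features. The rest of the long arm fell by 0.64 ± 0.03, with 1.36% and 1.38% for ARID1A and 2.11% and 2.15% for H3K27ac, and the short arm by 0.44 ± 0.02, with 2.01% and 2.09% for ARID1A and 2.80% and 2.77% for H3K27ac. Band 19q13.33 was nearest to the H3K27ac level, with 0.545% and 0.581% for ARID1A, against 0.644% and 0.637% for H3K27ac. Its log2 fold of -0.18 ± 0.05 passed (edgeR, adjusted p = 0.0266) but not with TMM (0.139) nor without ARID1A replicate 1 (0.43) or ARID1A replicate 2 (0.212).

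By cytoband, 17 of 18 were called lower for ARID1A and 1 higher, where 42.7% of all bands were called lower and 42.6% higher (edgeR, adjusted p under 0.05). With library totals 16 of the 17 stayed lower. The lowest was 19q13.43 at the end of the long arm, with 56 and 47 PETs for ARID1A, against 740 and 825 for H3K27ac, a log2 fold of -3.07 ± 0.11 (SE). Band 19q13.41 had 21 and 18 for ARID1A, against 180 and 177 for H3K27ac (-2.34 ± 0.19). Band 19p12, which like 19q13.43 is known for zinc finger gene clusters, had 4 and 5 PETs for ARID1A, against 57 and 61 for H3K27ac. It passed the filter on low counts through H3K27ac alone, so its call, counted among the 17, carries no weight of its own and no fold is given. Only 19p13.12 was called higher, with 1165 and 1259 PETs for ARID1A and 2007 and 2022 for H3K27ac, a log2 fold of 0.12 ± 0.04 (adjusted p = 0.00591). That call did not pass with DESeq2 (adjusted p = 0.0884) nor without H3K27ac day 3 replicate 2 (edgeR, adjusted p = 0.137).

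Most anchors of chromosome 19 shared by both landscapes carried fewer ARID1A contacts relative to depth. Of 564 consensus anchors called for both, 550 passed the filter, and their loops held 43.5% and 43.4% of the chromosome 19 PETs for ARID1A and 82.6% and 83.0% for H3K27ac. Of the 550, 55 were called higher for ARID1A and 364 lower (edgeR, adjusted p under 0.05), or 10.0% and 66.2%, where 31.5% of all anchors tested in the genome were called higher and 32.5% lower. The median log2 fold was -1.01 on chromosome 19 and 0.002 on the other autosomes. Library totals lowered both by 0.65, to -1.66 and -0.65, and gave 18 higher and 466 lower. With only PETs of loops at a deposited value of 0.01 or less the medians were -2.22 and -0.43. Among the 390 anchors whose called stretches overlapped by at least 50% of each, 13 were higher and 249 lower, and the median was -0.95, against 0.0003 on the other autosomes. The regions ranged over medians of -1.66 in the zinc finger window, where 33 of 38 were lower and 0 higher, -1.05 on the rest of the long arm, -0.92 on the short arm and -0.87 in 19q13.33. An anchor could pass the filter of 10 PETs through the deeper H3K27ac libraries alone, in the group where it is high. With no filter, 52 of 563 were called higher and 375 lower, with medians of -1.04 on chromosome 19 and -0.02 elsewhere. How far the filter sets the calls, or the counts by region, was not tested.

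**Figure D5:**
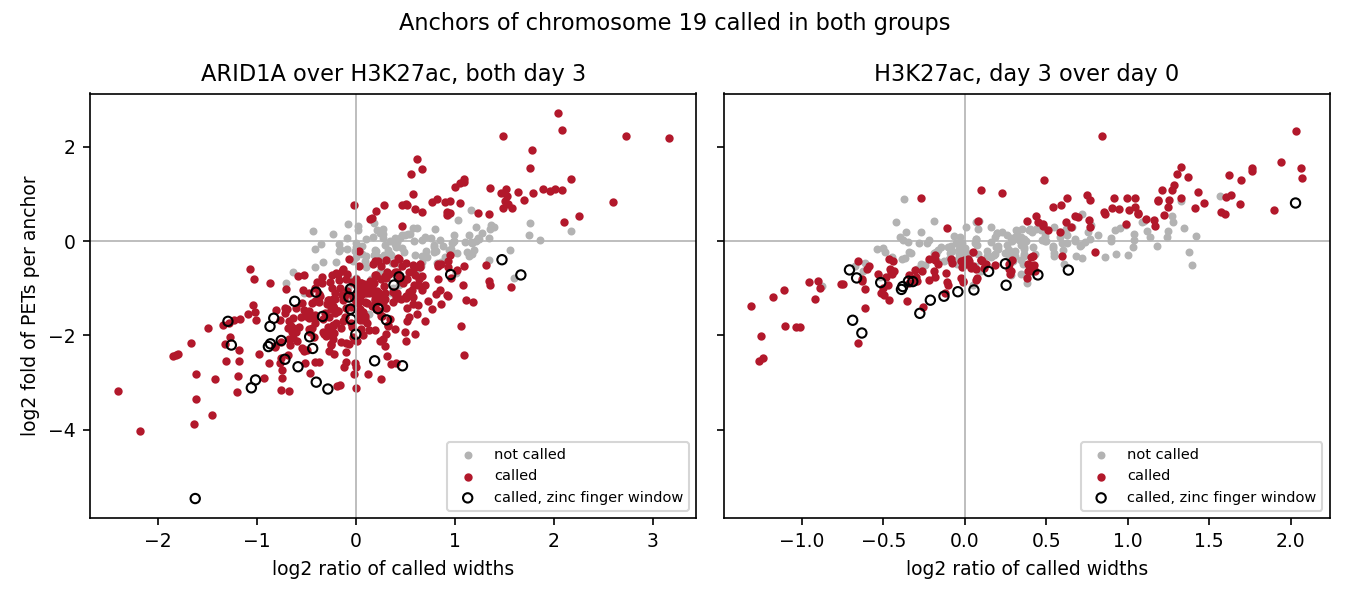
Log2 fold of PETs per anchor (y axis) against the log2 ratio of the widths over which the anchor was called (x axis), for the 550 anchors tested for ARID1A over H3K27ac (left) and the 363 tested for day 3 over day 0 (right). Red points were called, grey points were not, and open circles are calls in the zinc finger window. On the left, 364 calls lie below 0 and 55 above; on the right, 114 lie below and 70 above.

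The anchors named here as lower were chosen by the smallest p, which favours those with many H3K27ac contacts. At chr19:1234228-1280624 in 19p13.3, 74 and 89 PETs for ARID1A stood against 1170 and 1219 for H3K27ac, over called widths of 41380 bp for ARID1A and 43304 bp for H3K27ac. That was 186.8 ± 15 CPM for ARID1A and 1334 ± 14 CPM for H3K27ac (SD, n = 2 each), a log2 fold of -2.18 ± 0.10 (SE; adjusted p = 1.1e-107, edgeR). The anchor chr19:13117813-13139614 in 19p13.2 had 10 and 15 PETs for ARID1A, against 406 and 428 for H3K27ac, and was called over 7098 bp for ARID1A and 21801 bp for H3K27ac (log2 fold -3.36 ± 0.20). Its loop of 39.7 kb to chr19:13160643-13176143 had 2 and 2 PETs for ARID1A, against 134 and 147 for H3K27ac. In 19q13.33, chr19:50350082-50383352 had 38 and 43 PETs for ARID1A, against 543 and 601 for H3K27ac (-2.12 ± 0.14), with widths of 25262 bp for ARID1A and 25106 bp for H3K27ac. At chr19:12883499-12913568 the counts were 41 and 46 for ARID1A, against 565 and 591 for H3K27ac (-2.03 ± 0.13), and at chr19:42743250-42777092 they were 55 and 65 for ARID1A, against 633 and 716 for H3K27ac (-1.79 ± 0.12). In the zinc finger window, chr19:58890487-58902574 in 19q13.43 had 1 and 1 PETs for ARID1A, against 158 and 144 for H3K27ac. So few ARID1A counts give no usable fold, and this anchor passed the filter through H3K27ac alone.

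The anchor chr19:1016044-1029761, which rose between day 0 and day 3 of H3K27ac, was also among those lowest for ARID1A, with 28 and 39 PETs, against 523 and 531 for H3K27ac (log2 fold -2.28 ± 0.15). Both comparisons use the same H3K27ac day 3 libraries, so the 2 folds are not independent of each other.

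The anchors called higher for ARID1A with the smallest p were called over stretches 1.58 to 8.95 times as long for ARID1A as for H3K27ac, and none of those named here was called for H3K27ac at day 0. In 19p13.11, chr19:17937144-17967849 had 71 and 102 PETs for ARID1A and 60 and 62 for H3K27ac. That was 197.7 ± 40 CPM for ARID1A and 68.1 ± 1.1 CPM for H3K27ac (SD, n = 2 each), over widths of 30705 bp for ARID1A and 3429 bp for H3K27ac. Its log2 fold was 2.20 ± 0.18 (SE; adjusted p = 2.7e-34, edgeR). Nearby, chr19:17839602-17868800 had 62 and 65 for ARID1A, against 53 and 34 for H3K27ac (2.24 ± 0.21). A pair of anchors in 19q13.31 behaved alike. At chr19:45163198-45181920, 98 and 87 PETs for ARID1A stood against 90 and 66 for H3K27ac (1.94 ± 0.16), and at chr19:45187068-45199376, 89 and 66 for ARID1A stood against 47 and 50 for H3K27ac (2.37 ± 0.19). The loop that joins them, 20.7 kb long, had 23 and 16 PETs for ARID1A, against 2 and 1 for H3K27ac. In 19q13.32, chr19:47425178-47442729 had 107 and 100 for ARID1A, against 118 and 115 for H3K27ac (1.52 ± 0.15), so the rise is relative to depth and not in raw counts. At chr19:8324150-8336551 in 19p13.2 there were 42 and 50 PETs for ARID1A and 30 and 33 for H3K27ac (2.24 ± 0.24), and in 19q13.33, chr19:49154208-49165786 had 61 and 75 for ARID1A, against 89 and 87 for H3K27ac (1.32 ± 0.17).

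Among loops with both ends called for both, 80 of 1875 on chromosome 19 were called higher for ARID1A and 573 lower (edgeR, adjusted p under 0.05), or 4.27% and 30.6%, where 14.6% and 18.7% of all loops tested were called. The H3K27ac libraries were deeper, so a loop could pass the filter of 4 PETs through them alone, in the group where it is high. Such loops can hardly be called higher for ARID1A. Part of the excess of lower calls and of the negative medians is therefore set by the filter, and how large a part was not tested. The median log2 fold was -1.41 on chromosome 19 and -0.44 on the other autosomes. Without H3K27ac day 3 replicate 1 these were -0.75 and 0.04, without H3K27ac day 3 replicate 2 -0.67 and 0.07, and with only loops at a deposited value of 0.01 or less -4.76 and -1.02. In the zinc finger window 1 of 98 was higher and 47 lower. Leaving out any of the 4 libraries gave 205 to 224 calls, always with more lower than higher. A loop that fell joined chr19:39134897-39166112 to chr19:39166741-39187975 in 19q13.2, with 26 and 18 PETs for ARID1A, against 263 and 299 for H3K27ac (log2 fold -2.02 ± 0.21). Among those that rose, a loop of 53.1 kb in 19p13.12 from chr19:14111560-14161836 to chr19:14182558-14196970 had 20 and 24 PETs for ARID1A, against 5 and 14 for H3K27ac (2.84 ± 0.38). Another in 19q13.32, from chr19:46216109-46228450 to chr19:46229681-46242648, had 34 and 39 for ARID1A, against 36 and 28 for H3K27ac (1.84 ± 0.25).

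The anchors with most contacts differed between the groups. By CPM over all their PETs, those of ARID1A were chr19:49104686-49151896 in 19q13.33, with 567 and 667 CPM and 60 and 66 partners, chr19:45234037-45282131 with 600 and 588 CPM, and chr19:45939261-45963925, both in 19q13.32, with 515 and 601 CPM. For H3K27ac at day 3 they lay on the short arm, led by chr19:2447092-2481130 with 70 and 71 partners at day 3. It had 324 and 397 CPM for ARID1A, 1363 and 1424 CPM for H3K27ac at day 3, and 676 and 760 CPM for H3K27ac at day 0. The next were chr19:1234228-1280624 with 1378 and 1346 CPM at day 3 and chr19:13939349-13980719 with 1188 and 1181 CPM at day 3. At day 0 the 3 leading anchors lay near each other in 19p13.11, and all had lower CPM at day 3. Choosing them by their day 0 level favours such a fall. With library totals the median anchor called on both days also stood at -0.82. Raw PETs of all 3 were higher at day 3, with 714 and 802 against 493 and 468 at day 0 for the first. The first, chr19:18381121-18423806, had 820 and 871 CPM at day 3, against 1893 and 2129 CPM at day 0. At chr19:18471705-18504208 there were 806 and 822 CPM at day 3, against 1617 and 1915 CPM at day 0. At chr19:18519861-18554057 there were 880 and 889 CPM at day 3, against 1651 and 1811 CPM at day 0. Each of these 9 anchors was called in all 3 groups.

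The loops with most PETs joined anchors close to each other. For ARID1A the first ran from chr19:45219465-45233138 to chr19:45234037-45282131 in 19q13.32, with 71 and 68 PETs for ARID1A and 89 and 123 for H3K27ac at day 3, and no anchor was called for H3K27ac at day 0 at its first end. Next came the 19q13.32 loop from 45939261 named above, with 67 and 71 PETs for ARID1A. A loop from chr19:18381121-18423806 to chr19:18424861-18442875 in 19p13.11 followed for ARID1A and was first for H3K27ac at day 0, with 65 and 66 PETs for ARID1A, 232 and 254 for H3K27ac at day 3 and 132 and 127 for H3K27ac at day 0. Also at day 0, the anchors at 18471705 and 18519861 shared 205 and 211 PETs at day 3, against 121 and 117 at day 0. The remaining one of day 0 ran from chr19:43679355-43721874 to chr19:43721874-43744549 in 19q13.31, with 147 and 135 at day 3, against 116 and 88 at day 0. For H3K27ac at day 3 the 19q13.2 loops from 42743250 and 39134897 led, followed by one from chr19:2447092-2481130 to chr19:2516459-2558859 in 19p13.3, with 51 and 41 PETs for ARID1A, 238 and 258 for H3K27ac at day 3 and 46 and 38 for H3K27ac at day 0.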

How the data were processed

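HiChIP was made in G401 cells with antibodies to ARID1A and H3K27ac, with paired reads of 150 bp per the labels' protocols. The submitters' processing notes name HiC-Pro, Bowtie2 and hg19 without versions. For the caller of anchors and loops, the tool was not given in the sources used here. Every deposited table lists pairs of anchors with a count of PETs, which are raw whole-number counts, and with a deposited value between 0 and 1 that has the range of a p-value or q-value. Which of these it is, is not stated, so it served only as a threshold of 0.01. Whether starts count from 0 or 1 is not stated, and coordinates are printed as deposited.

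Anchors of all libraries were merged where they overlapped by at least 1 bp. PETs with both ends inside a single consensus anchor, 2.44% to 11.5% of those on chromosome 19, were left out of the fits. Band limits came from circlize 0.4.16 and coding genes from RefSeq names. Counts were fitted in R 4.3.3 by edgeR 4.0.16 (quasi-likelihood), with the 2 groups compared, no block and Benjamini-Hochberg adjustment over all anchors, loops or bands of the genome. Anchors and loops were limited to those called in both groups and scaled by TMM. At least 10 PETs for an anchor or band, or 4 for a loop, were required in 2 libraries, which could both be of the same group. The SE of a log2 fold is its size divided by the square root of F. Autosomes and regions were scaled to their summed PETs. The anchor and loop tests were also run on simulated counts with known changes, and those of bands, autosomes and regions were not. The text names those calls of chromosome 19 whose groups stood apart on CPM and that ranked first by p in each direction of a comparison (6 anchors, 3 loops), the leading anchor of each of the 4 regions by the same ranking, and the 3 anchors and 3 loops with most PETs in each group. The members and lists were chosen with earlier results of these data known. The alternatives included DESeq2 1.42.0, other scalings and filters, thinning, leaving out each library and the replicate number as a block. The labels do not say whether replicate numbers pair the libraries. Deviations of same-numbered libraries correlated at 0.002 to 0.014, which cannot decide it with 2 libraries a group and many low counts. No hg19 sequence was used here.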

Additional observations from a re-analysis of the deposited data

How the results depend on the processing

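Of 200 alternative values for results that answer a comparison, 144 kept their direction and their side of the threshold or stayed within 1.5 times of a count. The count of anchors of chromosome 19 called between day 3 and day 0, 184, was 103 with DESeq2, 70 with anchors of like extent, 104 with the deposited value at 0.01 or less and 599 over all regions, and leaving out a library gave 139 to 156. The count of such loops, 211, was 337 with library totals, 43 with DESeq2, 130 with no filter, 5 after thinning, 31 with like extent and 1495 over all regions, and 89 to 102 without a library. For ARID1A over H3K27ac, the count of anchors, 419, was 262 with like extent, 235 with the value threshold and 932 over all regions. That of loops, 653, was 1086 with library totals, 222 with DESeq2, 155 after thinning, 236 with like extent, 411 with the value threshold, 1593 over all regions and 205 to 224 without a library, and that of lower loops, 573, was 336 with edgeR's newer quasi-likelihood method, chosen after seeing the data. With no filter 0 were called by edgeR, where 1290 had an unadjusted p under 0.05. Whether the replicate numbers pair the libraries is not in the labels. A replicate block gave 331 loop calls in place of 653 and a log2 fold of -0.18 for ARID1A in 19q13.33 that no longer passed (edgeR, adjusted p = 0.116).

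The log2 fold of chromosome 19 between day 3 and day 0, 0.01, was -0.036 over anchors in both groups, 0.10 for spans of 20 kb or more, 0.66 with the value threshold and -0.032 to 0.051 without a library. On the short arm, 0.03 became -0.11, 0.17 and 0.81 in the same settings, and -0.022 to 0.088 without a library. In 19q13.33, -0.26 became 0.13 over anchors in both groups and 0.37 with the value threshold, and -0.29 to -0.24 without a library. Without a library the zinc finger window ranged over -0.63 to -0.53 and the rest of the long arm over 0.16 to 0.21. For ARID1A in 19q13.33, -0.18 was -0.12 with TMM and -0.23 to -0.14 without a library. The day 3 span difference of 22.8 kb was 130.4 kb with each loop counted once, 26.8 kb with the value threshold and 9.63 kb for spans of 20 kb or more. The ARID1A difference of -31.4 kb was -287.9, -15.4 and -35.8 kb, and -26.3 kb over anchors in both groups. With the value threshold, direction also turned for the difference in median anchor fold at day 3 (0.21), the anchor at 49953912 (0.31), the loops from 2610408 (0.38) and 45939261 (0.088), the ratios to the other autosomes of partners per anchor for ARID1A (0.81) and at day 0 (0.87), of anchors stepped over for ARID1A (0.87), of anchor width for ARID1A (1.04) and of span at day 3 (0.93) and day 0 (0.81), and anchors per Mb of the zinc finger window against the other autosomes for ARID1A. Of 341 alternative values for named anchors 336 kept their call, of 143 for named loops 128, and of 85 for named bands 82. The named anchors and loops were chosen by small p in these same counts, and the bands by keeping their direction under both scalings. These tallies were therefore largely set in advance and do not measure how firm the calls are. The causes were not tested. Loops of few PETs limit the precision: 43.1% to 61.9% of chromosome 19 loops rest on a single PET.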

Other observations

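Shares of consensus anchors by the groups that called them differed a little on chromosome 19. Anchors called for ARID1A alone made up 491 of 1257, or 39.1%, against 44.1% on the other autosomes, and those called in all 3 groups 322, or 25.6%, against 19.2%. Anchors called for ARID1A and for H3K27ac at day 0, but not at day 3, were 32, or 2.55%, against 0.83% elsewhere, and 7 of those lay among the 101 anchors of the zinc finger window. In that window, loops under 20 kb held 25.6% and 28.2% of the PETs for ARID1A, 23.9% and 24.1% at day 3, and 34.7% and 30.6% at day 0, in each library more than on chromosome 19 as a whole.

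Before anchors were merged, the listed loop with most PETs on chromosome 19 held fewer than that elsewhere in every library. It held 71 and 68 PETs for ARID1A, 263 and 299 at day 3, and 118 and 90 at day 0. On the other autosomes it held 178 and 200 PETs for ARID1A, 864 and 940 at day 3, and 600 and 501 at day 0. Those autosomes together list many more loops, so a higher maximum there was nearly set in advance. Among the 22 autosomes taken singly, chromosome 19 ranked 19 from the highest for ARID1A, 20 at day 3 and 21 at day 0, by group mean. The share of loops with the deposited value at 0.01 or less was 10.3% and 10.7% for ARID1A, 21.5% and 22.2% at day 3, and 13.31% and 14.0% at day 0. Elsewhere it was 16.1% and 16.5% for ARID1A, 21.9% and 21.99% at day 3, and 21.1% and 20.4% at day 0.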
